A study of Mus musculus with 71 samples.

Results

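The comparison set the undisturbed whole brain of C57BL/6J mice against that of AKR/J mice. It used the 24 of 71 arrays whose labels name a control of these strains, 12 of C57BL/6J and 12 of AKR/J, with time of sacrifice as a block. Genes whose probe sets agree in direction and size were then separated from genes for which a single probe set differed.

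Each array carried RNA pooled from 3 male mice aged 12 to 13 weeks, from Jackson Laboratory, and was a one-colour Affymetrix expression array. C57BL/6J and AKR/J are inbred strains, and the labels name no transgene or drug for either group. Mice were left in the home cage and killed at ZT0, ZT6, ZT12 or ZT18, where ZT0 is light onset and ZT12 dark onset, with 3 arrays per strain and time. The series also holds mice kept awake for 6 h and a further strain, DBA/2J, and compared the response to sleep loss among strains around the clock. For the strain contrast the sleep-deprived C57BL/6J (12) and AKR/J (11) arrays served as a second set of pools, and the 12 DBA/2J control arrays gave levels of a further strain.

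Inbred strains differ in coding and regulatory sequence and in the number of copies of some genes, and each of these can change the RNA level of a gene in every tissue that expresses it. An array measures a transcript through short probes gathered in probe sets, which can lie in different exons or transcript ends, so that a gene read by several probe sets is measured more than once. Probes are designed on known transcript sequence, and a base difference between strains under a probe lowers the signal of the strain that carries it without any change in RNA level. Probe sequences and AKR/J genome sequence were not used here, and the part of such base differences in any single value was not tested. Levels are log2 signals per probe set and differences are C57BL/6J minus AKR/J in log2 units, with their standard error (SE). No detection calls were used, so a low signal cannot be told apart from background, and no fold is given where the lower group's median lay below the array medians of 5.65 to 5.69. RNA amounts are read from whole brain, in which fewer cells of a type and less RNA per cell cannot be told apart.

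Whole-brain RNA differed between the strains at many genes, mostly by small amounts. At an adjusted p under 0.05 (limma, Benjamini-Hochberg over 45037 probe sets), 9220 probe sets from 5256 named genes were called, which is 20.5% of those tested. Of these, 4050 were higher in C57BL/6J (8.99% of all) and 5170 were lower (11.5% of all). Their sizes had a median of 0.21 log2 units. Differences of at least 0.5 numbered 1338 (2.97%), of which 796 were higher and 542 lower, and 117 reached 2 log2 units, of which 90 were higher and 27 lower. The share that was higher in C57BL/6J was 43.9% of all calls, 59.5% of those of at least 0.5 and 76.9% of those of at least 2. Under quantile normalization and under centring of the arrays the share over all calls was 48.8% and 46.4%. The 12 C57BL/6J arrays did not overlap with the 12 AKR/J arrays on 1814 probe sets, 4.03% of all.

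**Figure D1:**
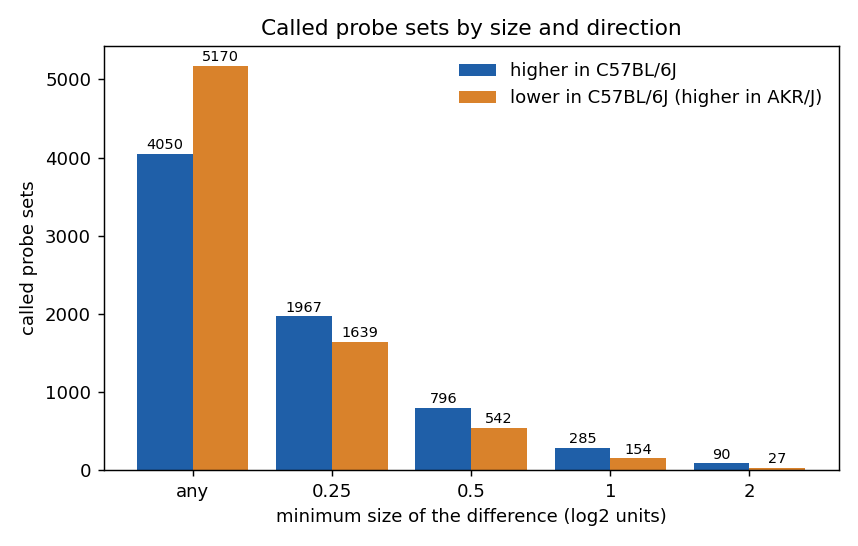
Number of called probe sets (adjusted p under 0.05, y axis) against the minimum size of the difference in log2 units (x axis), with blue bars for higher and orange bars for lower in C57BL/6J. Calls of any size numbered 4050 higher and 5170 lower, and calls of at least 2 log2 units numbered 90 higher and 27 lower.

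Arrays of different strains correlated at 0.987 to 0.992 and arrays of the same strain at 0.993 to 0.998. On the bacterial spike-in controls 1 C57BL/6J array and 2 AKR/J arrays stood apart, with mean levels of 5.06 or less against 5.43 or more on the others. Without these 3 arrays 9407 probe sets were called, and within them 1336 of the 1338 larger differences (99.9%) had the same sign. Pituitary hormone genes varied by array in both strains, with Gh between 9.47 and 13.31 in C57BL/6J and between 4.01 and 13.28 in AKR/J, and 0 of 7 pituitary markers were called.

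Of 18193 named genes, 9010 had at least 2 probe sets and 9183 had 1. Among the 9010, 3558 had a call on any probe set. In 128 genes at least 2 probe sets were called in the same direction and had at least 0.5 times the size of the gene's largest difference, which itself was 0.5 or more, and none was called the other way. Further probe sets of such a gene may be called with a smaller size or not called. These genes are called agreeing below. In 155 genes exactly 1 probe set was called, by 0.5 or more, and in 156 further genes several were called the same way but only 1 reached the required size (uneven genes). In 405 genes probe sets were called in both directions, whatever their size (opposing genes), and in 2714 further genes no call reached 0.5. Of the agreeing genes 74 were higher and 54 lower in C57BL/6J, and of the single probe set genes 83 were higher and 72 lower. The agreeing genes just inside the size limit were Pcdh18 with a size of 0.502 and Rnd3 with 0.503. Just outside it were Tmem40 with 0.498 and Mycl with 0.494.

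The agreeing gene with the largest difference was Pttg1, which encodes securin, an inhibitor of the protease that opens sister chromatids. On the probe set with the larger difference the lowest, median and highest signals were 9.52, 9.82 and 9.90 in C57BL/6J, against 5.18, 5.46 and 5.70 in AKR/J. On the other agreeing probe set they were 11.60, 11.71 and 11.79 in C57BL/6J, against 7.67, 7.89 and 8.12 in AKR/J. All C57BL/6J arrays lay above all AKR/J arrays on both, with differences of 4.33 ± 0.06 (adjusted p = 2.65e-28) and 3.79 ± 0.04 (13.9-fold). The third Pttg1 probe set was also higher, by 0.84. DBA/2J controls averaged 6.64 ± 0.11 (SD, n = 12) on the first of these, nearer to AKR/J.

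Promoter sequence of Pttg1 and of 3 agreeing genes lower in C57BL/6J is given because the reference genome is that of C57BL/6J and so shows the allele of 1 of the 2 strains. Each is RefSeq sequence of build GRCm38.p6, minus strand, from 250 bases before to 50 bases after the start of the gene, written 5′ to 3′. Capitals mark matches to 3 motifs on either strand. The TATA box, searched as TATAAA, is held by 13.6% of the 32851 promoter windows of the same length. The CCAAT box, searched as those letters, is held by 37.4%. The GC box, searched as GGGCGG, is held by 35.7%. The windows are at chr11:43425932-43426231 for Pttg1, chr4:62520014-62520313 for Alad, chr5:71095800-71096099 for Gabra2 and chr17:30612610-30612909 for Glo1.
Pttg1: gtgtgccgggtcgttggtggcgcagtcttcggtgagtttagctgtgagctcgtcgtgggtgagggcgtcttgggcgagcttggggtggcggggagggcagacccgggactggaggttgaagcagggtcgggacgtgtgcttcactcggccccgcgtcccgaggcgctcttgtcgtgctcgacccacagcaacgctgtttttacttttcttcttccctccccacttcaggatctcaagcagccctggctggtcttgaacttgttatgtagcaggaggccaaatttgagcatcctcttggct
Alad: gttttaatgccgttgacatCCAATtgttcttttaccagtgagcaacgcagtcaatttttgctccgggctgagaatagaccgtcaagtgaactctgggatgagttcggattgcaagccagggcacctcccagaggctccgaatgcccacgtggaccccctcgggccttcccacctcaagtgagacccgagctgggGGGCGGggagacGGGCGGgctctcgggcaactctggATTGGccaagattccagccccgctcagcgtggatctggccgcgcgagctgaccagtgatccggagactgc
Gabra2: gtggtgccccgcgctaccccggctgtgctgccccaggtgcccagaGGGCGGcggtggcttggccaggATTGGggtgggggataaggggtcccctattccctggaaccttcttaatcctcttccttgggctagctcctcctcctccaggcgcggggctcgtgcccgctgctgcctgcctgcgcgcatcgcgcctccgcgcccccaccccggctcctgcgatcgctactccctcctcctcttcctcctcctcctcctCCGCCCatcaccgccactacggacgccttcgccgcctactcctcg
Glo1: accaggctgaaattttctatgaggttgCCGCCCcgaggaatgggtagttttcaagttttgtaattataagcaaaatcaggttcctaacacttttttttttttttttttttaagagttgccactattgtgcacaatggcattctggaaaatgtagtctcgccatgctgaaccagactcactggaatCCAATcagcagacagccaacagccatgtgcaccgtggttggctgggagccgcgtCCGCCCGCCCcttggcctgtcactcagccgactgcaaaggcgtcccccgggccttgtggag
The Pttg1 window holds none of the 3 motifs. The Alad window holds 2 CCAAT boxes and 2 GC boxes. The Gabra2 window holds 1 CCAAT box and 2 GC boxes, and the Glo1 window 1 CCAAT box and 3 GC boxes, of which 2 share bases. These are matches of letters only, and promoters were held for 101 of the 128 agreeing genes.

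The other agreeing genes are given in the same way, with signals as lowest, median and highest of 12 arrays. Car8, a carbonic anhydrase relative of cerebellar Purkinje cells that binds the IP3 receptor, had signals of 8.13, 8.29 and 8.61 in C57BL/6J, against 5.04, 5.22 and 5.35 in AKR/J. The groups were far apart, with a difference of 3.08 ± 0.05 (adjusted p = 1.98e-26), and the other Car8 probe sets were higher by 1.55 and 0.53. Uqcr10, a subunit of respiratory complex III, was higher by 3.92 and 2.00 on 2 probe sets, while the third gave 0.04 (adjusted p = 0.669). The 2.00 was on an _x_at probe set, a type that can match several transcripts, and the 0.04 on the probe set of highest mean signal.

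Kcnma1, the pore subunit of the BK calcium-activated potassium channel, had signals of 9.05, 9.13 and 9.34 in C57BL/6J, against 7.18, 7.58 and 7.84 in AKR/J. No C57BL/6J array fell into the AKR/J range. The difference was 1.62 ± 0.06 (3.08-fold), and 1.15 on the second agreeing probe set. Another 2 Kcnma1 probe sets gave -0.07 and -0.01 and were not called, so the gene agrees on a part of its probe sets. The same holds for Trp53bp1, a DNA damage response protein gene, with 3.34 and 2.62 on 2 probe sets and between -0.14 and 0.14 on the remaining 4, none called. Kif5b, a kinesin heavy chain gene, was higher by 2.11 and 1.38 on its agreeing probe sets, and 2 of its 6 gave 0.07 and 0.01.

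H2-K1, a class I histocompatibility gene whose sequence differs among strains, had signals of 8.31, 8.49 and 8.74 in C57BL/6J, against 5.89, 6.35 and 6.45 in AKR/J. It was higher in every C57BL/6J array, by 2.23 ± 0.05 and by 1.85 on its 2 agreeing probe sets of 4. These are _x_at probe sets, which can match several transcripts, so the signals of related class I genes cannot be told apart. Ighm, the immunoglobulin M heavy chain gene, was higher by 2.03 and 1.48, and 8 of its 11 probe sets were not called. The remaining named agreeing genes were Pisd-ps3, a pseudogene with near-identical relatives and therefore uncertain, with 4.11 on its highest probe set, Dcaf17, a substrate receptor of a ubiquitin ligase, with 2.47, Mbtd1, a chromatin reader, with 1.79, and Zc2hc1a with 1.40. Agreement covered 3 of 5 probe sets of Pisd-ps3, 2 of 3 of Dcaf17 and of Zc2hc1a, and 2 of 4 of Mbtd1. The probe set of highest mean signal gave -0.0052 for Zc2hc1a, not called, and 0.24 for Mbtd1.

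The agreeing genes lower in C57BL/6J included several for which allele differences between mouse strains are known. Wdfy1, an endosomal FYVE protein gene of Toll-like receptor signalling, had signals of 4.54, 4.88 and 5.42 in C57BL/6J, against 6.42, 6.74 and 7.09 in AKR/J. All C57BL/6J arrays were below all AKR/J arrays, with a difference of -1.85 ± 0.09, and of -1.61 and -1.53 on 2 other probe sets (adjusted p = 2.94e-22 on the last). DBA/2J controls averaged 6.92 ± 0.28 on the first, close to AKR/J.

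Alad, the second enzyme of haem synthesis, is present in extra copies in some strains. Its signals were 7.60, 7.89 and 7.99 in C57BL/6J, against 9.13, 9.33 and 9.50 in AKR/J. C57BL/6J was lower without overlap, at -1.46 ± 0.04 (2.75-fold, adjusted p = 2.4e-22), and -1.11 on the other probe set. Glo1, the glyoxalase that clears methylglyoxal and that is duplicated in some inbred strains, had signals of 8.80, 8.85 and 8.96 in C57BL/6J, against 9.95, 10.04 and 10.17 in AKR/J. It was lower in C57BL/6J on its 4 probe sets, from -1.20 ± 0.03 on this one (adjusted p = 6.43e-22) to -0.27 on the weakest. DBA/2J controls averaged 10.03 ± 0.06 on the first.

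Gabra2, the alpha2 subunit of the GABA-A receptor, is known to carry a variant in C57BL/6J that lowers its RNA. Its signals were 6.56, 6.74 and 7.03 in C57BL/6J, against 7.97, 8.09 and 8.27 in AKR/J. The ranges were apart, and the difference was -1.32 ± 0.04 (2.49-fold, adjusted p = 1.98e-19). Its 4 other probe sets were lower as well, at -1.31, -1.17, -0.34 and -0.15. Nnt, the mitochondrial transhydrogenase that makes NADPH and of which C57BL/6J carries a deletion allele, had signals of 7.14, 7.31 and 7.62 in C57BL/6J, against 8.08, 8.25 and 8.49 in AKR/J. Again the ranges were apart, with -0.94 ± 0.05 (1.92-fold) and -0.93 on the agreeing probe sets and -0.05 (adjusted p = 0.528) on the third.

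**Figure D2:**
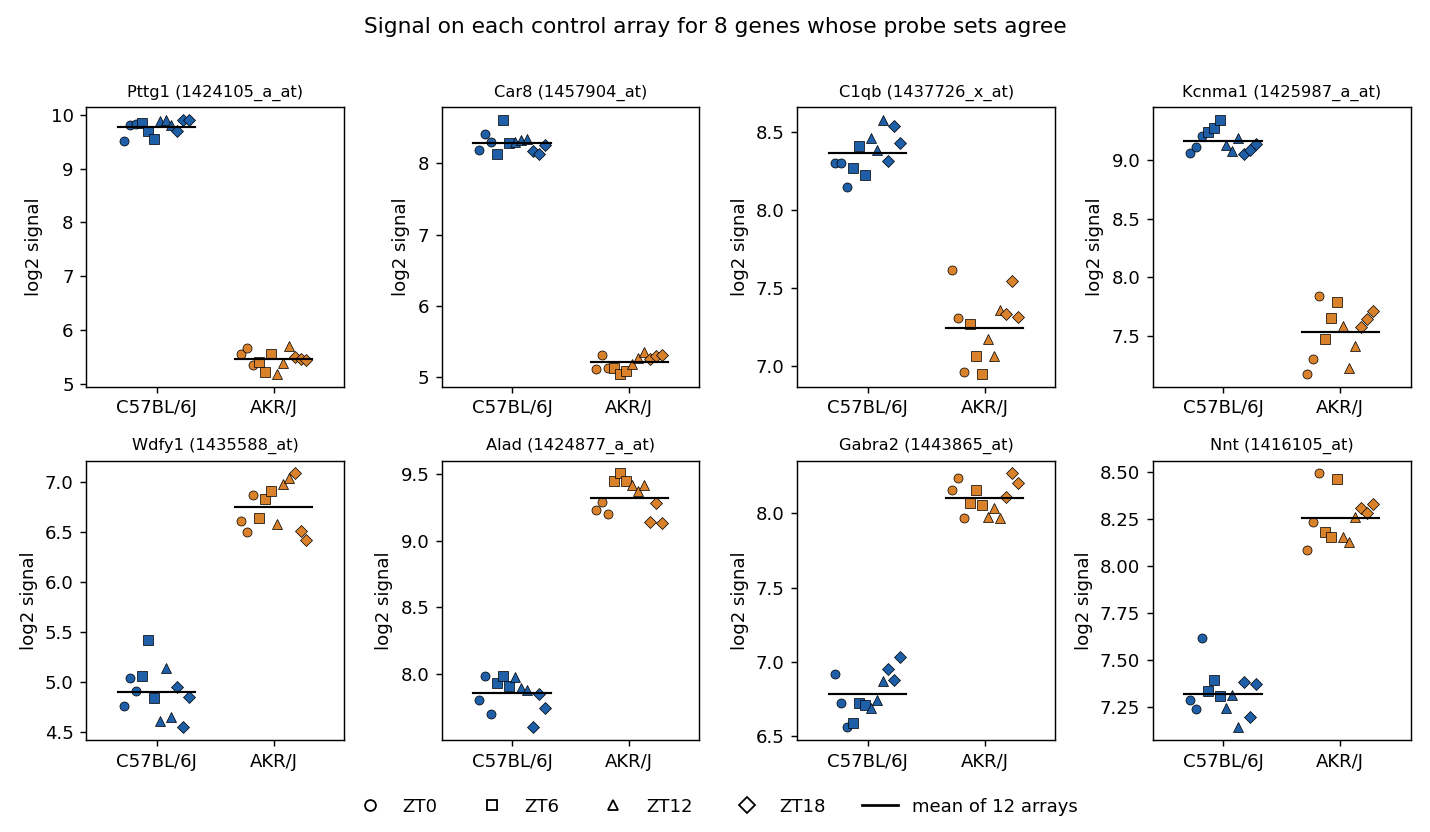
Log2 signal (y axis) on each of the 12 C57BL/6J control arrays (left, blue) and 12 AKR/J control arrays (right, orange) for 8 agreeing genes, each on its probe set with the largest difference, with marker shapes for the time of sacrifice and lines for the mean. The strains do not overlap in any panel, with Pttg1 4.33 apart and Nnt -0.94.

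The remaining named agreeing genes lower in C57BL/6J had 2 or 3 probe sets within the size rule, which allows unequal sizes. Casp9, the initiator caspase of the mitochondrial pathway, was lower, at -1.53, -1.10 and -0.87 on its 3 probe sets. Lpl, lipoprotein lipase, was lower, at -1.08 and -1.05 on its pair. Sema6d, a semaphorin, was lower, at -1.26 and -1.20 on 2 probe sets and gave -0.13 and 0.01 on the others, neither called. Rgl1, a Ral exchange factor, had -1.44 and -0.99, Tpbg, a membrane glycoprotein gene of Wnt signalling, had -1.17 and -1.13, and Sbspon had -1.42 and -1.07. Lsm12 had -1.30 and -1.08, and Mphosph9 -1.35 and -0.92 on 2 of its 6 probe sets. The 2 Mphosph9 probe sets of highest mean signal gave -0.08 and -0.05 and were not called. In the pair of highest mean signal the strain difference was unequal for Casp9, Rgl1 and Sbspon (limma, adjusted p = 7.07e-06, 0.00974 and 0.0158). No such inequality was called for Lpl, Tpbg and Lsm12.

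The 128 agreeing genes held 439 probe sets, of which 341 were called. The probe set with the largest difference was _x_at or _s_at, types that can match several transcripts, in 21 genes (16.4%). Of all probe sets 10.1% were of these types. On the probe set with the largest difference the strains did not overlap in 110 genes (85.9%), against 4.03% of all probe sets, and the sign was the same at each of the 4 times in 128. Since the genes were chosen for large differences on these same arrays, these counts describe the choice and support nothing further. DBA/2J, which played no part in choosing the agreeing genes, was nearer to AKR/J in 77 and nearer to C57BL/6J in 51. The other classes also had more genes nearer to AKR/J, with 93 against 63 uneven, 96 against 59 single and 226 against 179 opposing genes. The split is thus not particular to agreeing genes, and the share over all probe sets was not counted. Chromosome 1 held 20 agreeing genes among 569 with at least 2 probe sets (3.51%), Y held 1 of 6 (16.7%), and the other autosomes and X held between 0.573% and 2.09%. Of 127 agreeing genes placed on a chromosome, 3 pairs lay within 5 measured genes of each other and 0 pairs were adjacent. Whether this number differs from that of genes placed at random was not tested. Vps52 and H2-K1 on chromosome 17 were both higher, by 0.79 and 2.04 on average, and Ighm and Zfp386 on chromosome 12 by 1.75 and 0.75. Ddit4l and Mttp on chromosome 3 differed in opposite directions, with 0.47 and -0.63.

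In single probe set genes 1 probe set was called and the others of the gene were not. Atxn1, the polyglutamine protein gene of spinocerebellar ataxia, had signals of 8.78, 8.96 and 9.15 in C57BL/6J, against 5.28, 5.63 and 6.02 in AKR/J on the called probe set. The groups were apart by 3.30 ± 0.07 (adjusted p = 2.23e-24), while its other probe sets gave 0.03 and 0.01. Ntrk3, the receptor for neurotrophin-3, showed the opposite direction, with 4.56, 5.37 and 5.75 in C57BL/6J, against 7.81, 8.06 and 8.75 in AKR/J. Again no array overlapped, and the difference was -2.84 ± 0.13, while the 7 other Ntrk3 probe sets lay between -0.13 and 0.05 and none was called.

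Single calls that were higher in C57BL/6J included Mid1, a microtubule-bound ubiquitin ligase gene, with 3.28, Nsg2, a neuronal endosome protein gene, with 2.21, and Ndel1, a partner of dynein in neuron migration, with 2.20. The other probe set of Nsg2 gave 0.02 and that of Ndel1 -0.01. Eml6 had 1.93, and Grik1, a kainate receptor subunit gene, had 1.77 against -0.10 on its other probe set. Single calls lower in C57BL/6J were Kbtbd11 with -2.09, Zfp704 with -2.03, Fam227b with -1.57 and 4930578G10Rik with -1.28. Il6st, the shared receptor subunit of the interleukin-6 family, had -1.40 on 1 probe set and 0.13, 0.09 and 0.02 on the others.

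The 155 single genes held 263 uncalled probe sets with a median size of 0.05, of which 145 had the sign of the called one. On the called probe set the strains did not overlap in 128 genes (82.6%), against 4.03% of all probe sets, a count that follows in part from choosing by size on the same arrays. DBA/2J was nearer to AKR/J in 96 and nearer to C57BL/6J in 59. Whether 2 probe sets of a gene differ in their strain difference was tested on the pair with the highest mean signal, chosen without regard to the difference. Of 9010 genes 1368 were called (limma, adjusted p under 0.05), 15.2%. The share was 49.2% among agreeing genes (63 of 128), 81.9% among single genes (127 of 155) and 1.39% among genes without a call. Since the classes use the same arrays as this test, these shares describe the classes and support nothing further. The sleep-deprived arrays repeated 1024 of the 1368 calls in sign and call (74.9%).

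In opposing genes the direction of the called differences depended on the probe set, but no minimum size applied to this class. The largest difference per gene had a median size of 0.41 over the 405 opposing genes. The smaller of the opposite calls ran from 2.80 for H2-D1 down to 0.08 for Cadm3. Prune2, Sox11, Slc1a2, Slc15a2 and H2-D1 were named because this smaller call was largest in them, so they do not stand for the class. Prune2, a BCH-domain protein gene of neurons, had signals of 10.81, 10.91 and 11.38 in C57BL/6J, against 4.17, 4.38 and 4.61 in AKR/J on 1 probe set, and 7.41, 7.83 and 7.96 in C57BL/6J, against 8.76, 8.96 and 9.35 in AKR/J on another. The first was far higher and the second lower in C57BL/6J, with 6.53 ± 0.06 (adjusted p = 1.05e-32) and -1.21 ± 0.07, both without overlap. Sox11, a transcription factor gene of neuron differentiation, gave 3.95 and -1.58 on 2 probe sets without overlap. Slc1a2, the main astrocytic glutamate transporter, gave 1.86 and -1.82, and 0.38 on another. Slc15a2, a peptide transporter gene, gave 2.73 and -1.04.

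H2-D1, a class I histocompatibility gene, gave 3.32 and -2.80 on 2 of its 9 probe sets, both _x_at. The test of probe set pairs had its smallest p for Prune2, followed by Scn2b, a sodium channel beta subunit gene, Rps9, Rpgrip1 and Sox11. Scn2b was 6.44 higher on 1 probe set, 0.49 higher on another and -0.15 on the third. Rpgrip1, a photoreceptor cilium protein gene, gave 5.19 on 1 of 4 probe sets, and the others lay between -0.22 and 0.01. Rps9, a ribosomal protein gene with possible near-identical copies and therefore uncertain, gave 3.76 on an _x_at probe set and -0.20 on an _s_at one.

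**Figure D3:**
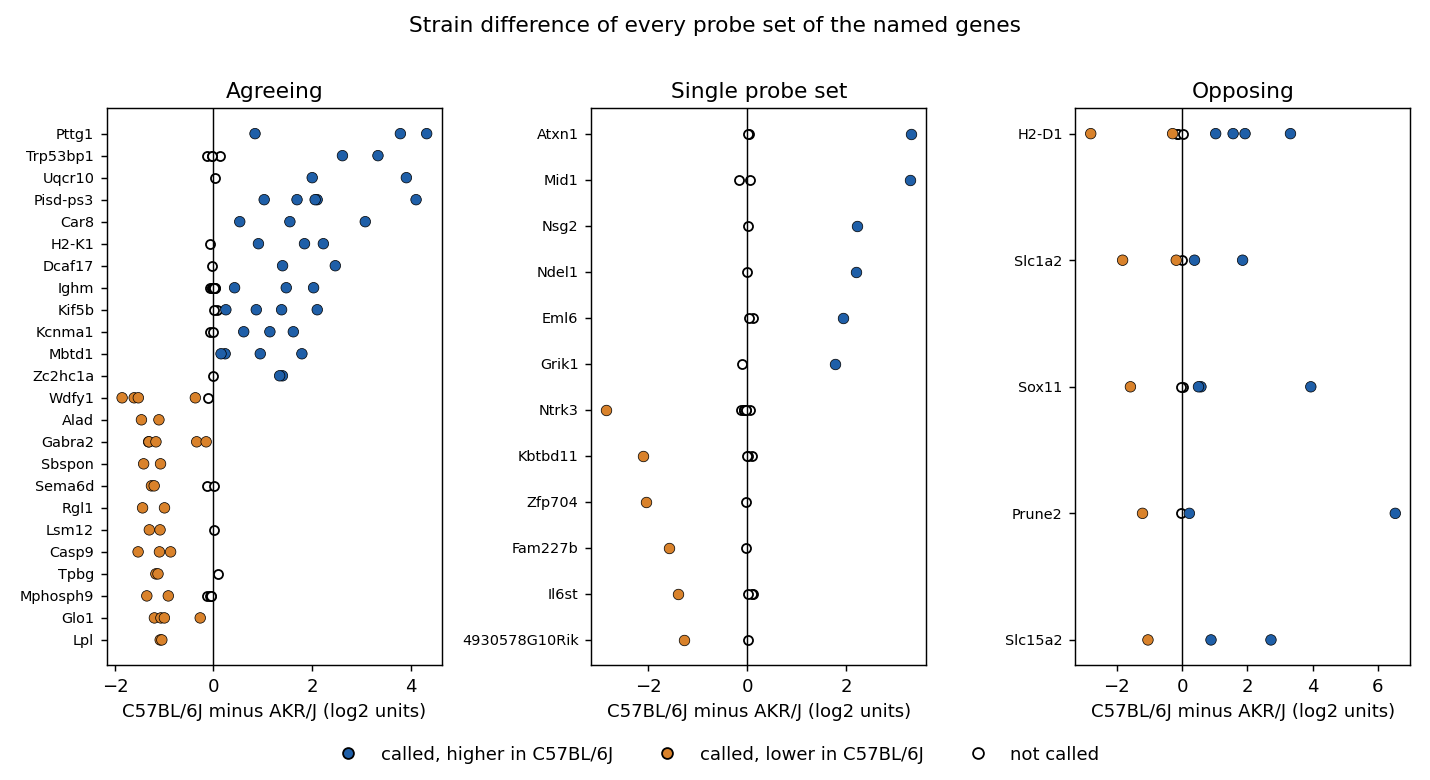
Strain difference in log2 units (x axis, C57BL/6J minus AKR/J) of every probe set (points) of the 24 named agreeing, 12 single probe set and 5 opposing genes, filled where called (blue higher, orange lower in C57BL/6J) and open where not. In the middle panel each gene has 1 filled point, from 3.30 for Atxn1 to -2.84 for Ntrk3, and open points near 0.

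Genes with 1 probe set cannot be placed in these classes. Of 1698 called, 173 differed by at least 0.5, 101 higher and 72 lower. The highest were Mir1931 with 4.10 on a probe set annotated to that microRNA gene, Pcdhb9, a protocadherin gene, with 2.47, Zfp874a with 2.19, Gm26782 with 2.17 and Zfp551 with 2.14. The lowest were Tmem87a with -2.76, AI506816 with -2.13, Pla2g4e, a cytosolic phospholipase A2 gene, with -1.91, Rpl14, a ribosomal protein gene, with -1.68, and Pomt1, a mannosyltransferase of dystroglycan, with -1.66. None of these 10 had overlapping groups, where 4.03% of all probe sets had none. They were chosen for size on these same arrays, so this count follows in part from the choice.

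Lists of genes were counted on the probe set of highest mean signal per gene, where 9.24% of 18193 genes were called higher, 12.8% lower and 22% in either direction. The median difference of all genes on this basis was -0.02. Of 27 measured genes with known strain alleles 1 was called higher and 9 lower (37%). Besides the agreeing Wdfy1, Alad, Gabra2, Glo1 and Nnt, the list held Fv1, the capsid restriction factor of murine leukaemia viruses, with signals of 4.97, 5.27 and 5.90 in C57BL/6J, against 6.07, 6.34 and 6.42 in AKR/J. C57BL/6J was lower on Fv1 without overlap, at -0.98 ± 0.07 (adjusted p = 1.02e-11). No call was made for Thy1, whose protein differs by strain, with 0.02 (adjusted p = 0.816), nor for the complement gene Hc with 0.05, the retrovirus receptor gene Xpr1, the antiviral genes Mx1 and Mx2, or the rest of the list other than small calls.

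In 2 immune lists more genes were called higher than lower in C57BL/6J. Of 28 histocompatibility and antigen presentation genes 11 were higher and 6 lower (60.7%), with a median of 0.05. B2m, the light chain of class I molecules, was higher by 0.43 and 0.34, and H2-T24, a class I-like gene, by 1.26. Of 56 interferon-inducible genes 18 were higher and 3 lower (37.5%), with a median of 0.06. Trim34a, a TRIM family gene, was higher by 1.15 on 1 of 2 probe sets, and Mndal by 1.03 and 0.88. The interferon-inducible GTPase genes Iigp1 and Igtp were higher by 0.68 and 0.48.

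Among 24 complement genes 4 were higher and 3 lower (29.2%). The 3 chains of C1q, the first component of the classical pathway, which microglia make in brain, were all higher. C1qc had signals of 7.89, 8.01 and 8.12 in C57BL/6J, against 6.57, 6.84 and 7.01 in AKR/J. C1qb had signals of 8.15, 8.35 and 8.57 in C57BL/6J, against 6.95, 7.29 and 7.62 in AKR/J. Both were higher in C57BL/6J without overlap, by 1.18 ± 0.04 (2.27-fold, adjusted p = 2.57e-19) and 1.12 ± 0.06, and C1qa was higher by 0.39. Cd59a, an inhibitor of the membrane attack complex, was lower, at -0.60 and -0.57. The 10 microglial markers, which include C1qa and C1qb but not C1qc, had 3 higher and 5 lower. Cd68, a lysosomal protein of phagocytes, was the other higher one, at 0.21. P2ry12, a purinergic receptor of resting microglia, and Aif1, a calcium-binding protein of microglia, were lower, at -0.69 and -0.42, and Itgam and Trem2 were not called. The mean of the 10 markers ran from 7.29 to 7.52 in C57BL/6J and from 7.34 to 7.53 in AKR/J.

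Of 20 genes of retrovirus restriction and retrovirus receptors 2 were higher and 2 lower (20%). Rsl1, a zinc finger repressor gene, was higher by 0.98 and Trim30a, a TRIM family gene, by 0.69 on 1 of 2 probe sets. Slc20a1 gave -0.02 on the counted probe set, but was called lower on 1 of its 3, at -1.17. Of 55 genes of glutathione, glyoxalase and NADPH metabolism 9 were higher and 16 lower (45.5%). Besides Glo1 and Nnt, Me3, the mitochondrial malic enzyme that also makes NADPH, was lower, at -0.79. Prdx2, a peroxiredoxin, was 2.37 higher on 1 probe set and lower, at -0.37, on the other, so its direction depends on the probe set. Of 8 haem synthesis genes 2 were higher and 2 lower (50%), with Cpox, a mitochondrial enzyme of the pathway, at 0.36, Alas2, its erythroid first enzyme, at 0.34 and Alas1, the general first enzyme, at -0.12 beside Alad. Another Cpox probe set gave 0.0009 and another Alas1 probe set 0.0047, neither called. Outside this count Fech was a single probe set gene, higher by 0.72 on 1 of its 4 probe sets.

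Receptor and channel genes differed singly. Of 15 GABA-A receptor subunit genes Gabra5 was higher by 0.24, Gabra6, the subunit of cerebellar granule cells, was lower, at -0.41 and Gabra2 was lower (20% called in all), and the list had 3 to 6 calls over the alternatives. Of 22 glutamate receptor genes 1 was called on the counted probe set (4.55%), the metabotropic receptor gene Grm3, which was higher by 0.41. On other probe sets Grin2b was an agreeing gene, higher by 0.81 and 0.63 on 2 of its 4, and Grik1 a single probe set gene. Of 47 potassium channel genes 8 were higher and 9 lower (36.2%), an order that turned to 9 higher and 8 lower under quantile normalization. Kcnj10, the glial inward rectifier Kir4.1, had signals of 9.13, 9.34 and 9.50 in C57BL/6J, against 9.75, 9.97 and 10.16 in AKR/J. It was lower without overlap, at -0.66 ± 0.04, while Kcnj16, which forms channels with it, was higher by 0.89 and 0.57. Kcnj9, a G protein-gated rectifier, was lower, at -1.94 and -0.96 and higher by 0.72 on different probe sets.

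Of 24 clock and clock output genes 2 were higher and 6 lower (33.3%). Of the 6 probe sets of Per3, a period gene whose RNA cycles with time of day, 4 were called lower and 1 higher. Per3 thus counts as opposing, with -1.37 ± 0.07, -0.89 and -0.87 among the lower differences and 0.44 on the higher one. On the probe set with -1.37 the Per3 signals were 4.56, 4.84 and 5.12 in C57BL/6J, against 5.88, 6.23 and 6.53 in AKR/J, without overlap between strains over the 4 times. Csnk1e, a kinase of period proteins, was lower, at -0.61 on 1 probe set and higher by 0.20 on another. Timeless was lower, at -0.34, and Bhlhe41, a clock repressor, gave 0.65 and -0.27. Of 16 genes studied for sleep homeostasis 2 were higher and 2 lower (25%). These were Opalin, a myelin protein gene, with 0.44, Bdnf, a neurotrophin, with 0.39, Hspa5, a chaperone of the endoplasmic reticulum, with -0.15, and Jph3, a junctophilin, with -0.18. The probe set next in mean signal gave 0.13 for Opalin, which was called, and 0.09 for Bdnf and 0.11 for Jph3, which were not. For Opalin, Bdnf and Jph3 the test of probe set pairs was called (limma, adjusted p = 0.000531, 0.000249 and 0.00187). The Hspa5 call was lost for 5 of 24 arrays left out. On its other called probe set it was lost with the replicate block (adjusted p = 0.0886) and after centring of the arrays (adjusted p = 0.0567). There it was also lost without ZT0, ZT12 or ZT18 (adjusted p = 0.4235, 0.2065 and 0.2541) and for most single arrays left out (adjusted p up to 0.0837). Of 41 sleep-wake neuromodulator genes 6 were higher and 2 lower (19.5%), among them Maob, which breaks down monoamines, with 0.35 and Pmch, the melanin-concentrating hormone gene, with -0.39. Of 6 Y-linked genes Uty was called lower, at -0.94, -0.89 and -0.54 on 3 probe sets. Outside this count Eif2s3y was called higher by 0.44 on another probe set (limma, adjusted p = 9.72e-05), with -0.11, not called, on the counted one. Kdm5d also had a call of under 0.5 in size outside its counted probe set.

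Marker genes showed brain tissue in both strains. The mean of 10 neuron markers ran from 11.65 to 11.84 in C57BL/6J and from 11.75 to 11.91 in AKR/J. Map2, a dendritic microtubule protein gene, was agreeing and lower, with -0.80 and -0.77 on its probe sets of largest difference. Of 8 oligodendrocyte markers 7 were higher and 0 lower, with a median of 0.17, and their mean ran from 10.53 to 10.80 in C57BL/6J and from 10.33 to 10.53 in AKR/J. Mobp, a myelin protein gene, was higher on its 5 probe sets, by 0.27 to 0.65. Of 8 choroid plexus markers 5 were higher, among them Kcnj13, an epithelial potassium channel gene, with 0.34. Of 10 astrocyte markers 4 were higher and 1 lower, with Aqp4, the water channel of astrocyte endfeet, agreeing at 0.47 and 0.46, and Gja1, a gap junction gene, at -0.21.

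Of the meningeal and cerebellar markers more were lower than higher. Of 9 meningeal markers 1 was higher and 5 lower, among them Lum and Col3a1, genes of the fibrous matrix, with -0.55 and -0.49, and their mean ran from 7.45 to 7.67 in C57BL/6J and from 7.58 to 7.80 in AKR/J. Of 9 cerebellar markers 6 were lower, among them Gabra6, Neurod1, a granule cell transcription factor gene, with -0.29, and Cbln1, a synapse organiser, with -0.21, while Car8 was higher. Their mean ran from 10.10 to 10.27 in C57BL/6J and from 10.21 to 10.36 in AKR/J. Of 8 endothelial markers 4 were higher and 2 lower, of 7 oligodendrocyte precursor markers 1 and 2, and of 6 hypothalamic markers 1 and 2, with Avp, the vasopressin gene, at -0.50. Of 6 blood cell markers 4 were higher and 0 lower, but leaving out any 1 of 9 of the 24 arrays left 2, with Hbb-b2, a haemoglobin chain, and Slc4a1, an erythrocyte anion exchanger, losing their calls. The single striatal call of 6, Penk, an opioid precursor gene, was lost for 17 of 24 arrays left out (adjusted p up to 0.0864). The single olfactory bulb call of 6, Th, the first enzyme of dopamine synthesis, was lost for 9 of 24 (adjusted p up to 0.0656). Choroid plexus calls numbered 3 to 6 when 1 array was left out. The part of cell type make-up or dissection in the gene differences above was not tested.

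**Figure D4:**
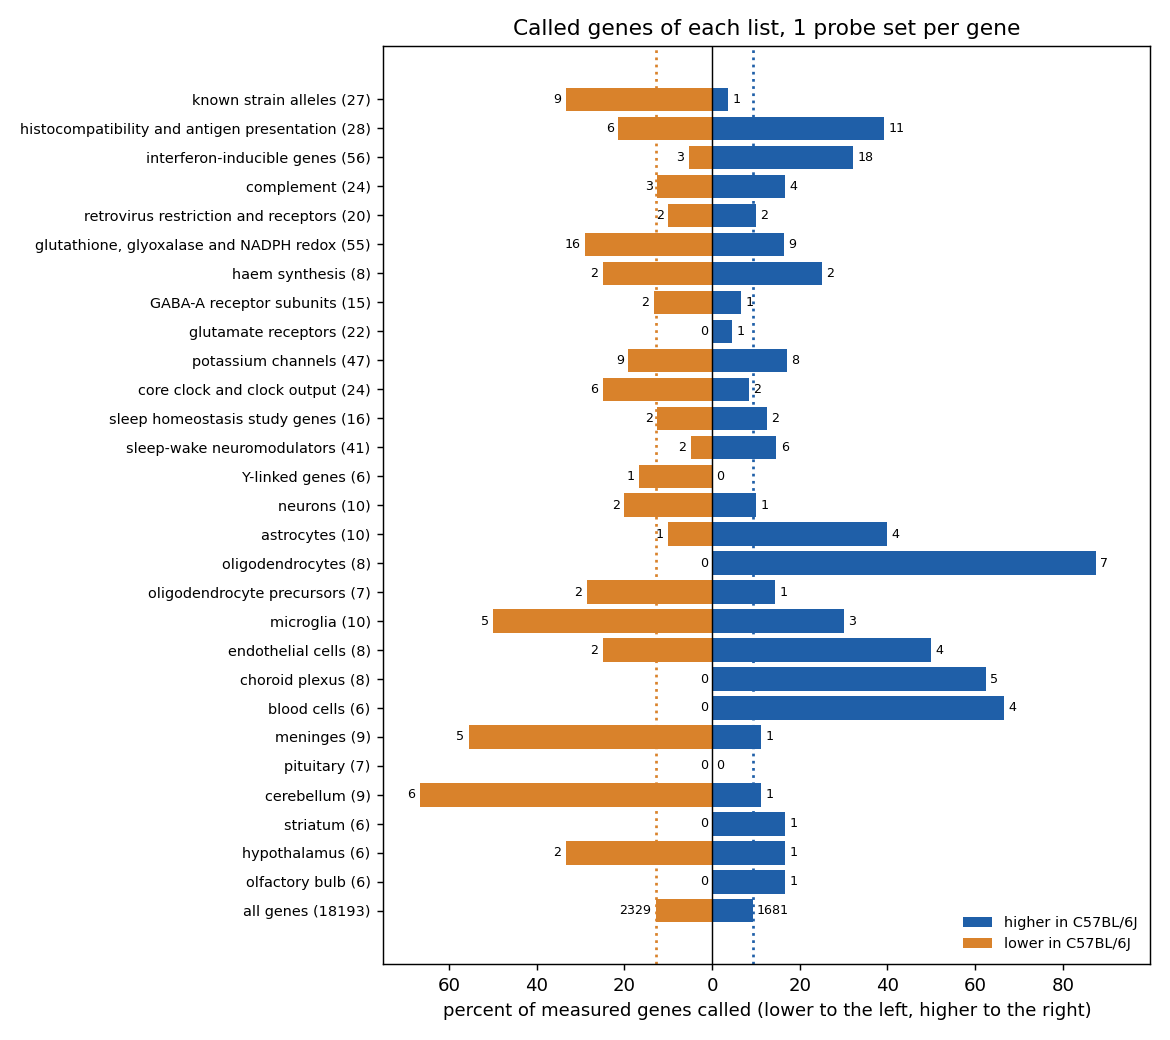
Percent of the measured genes of each list (number measured in parentheses) that were called higher (blue, right) or lower (orange, left) in C57BL/6J, on 1 probe set per gene, with the counts at the bar ends and dotted lines for the shares over all 18193 genes, 9.24% higher and 12.8% lower. Oligodendrocyte markers reached 7 of 8 higher and cerebellar markers 6 of 9 lower.

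The strain differences were repeated in mice kept awake for 6 h. In the sleep-deprived arrays, which share no pool with the controls, 10592 probe sets were called between the strains (23.5%). Of the 9220 called in controls 6358 (69%) were called in the same direction, 7 in the opposite direction, and 8801 (95.5%) had the same sign. Of the agreeing genes 127 of 128 were called in the same direction on the probe set of largest difference, with a median ratio of the difference in sleep-deprived mice to that in controls of 0.98. Of the single probe set genes 154 of 155 were, with a median ratio of 1.00. Whether the classes differ in this respect was not tested. Pttg1 gave 4.41 in sleep-deprived mice and 4.33 in controls, and Atxn1 3.39 and 3.30.

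**Figure D5:**
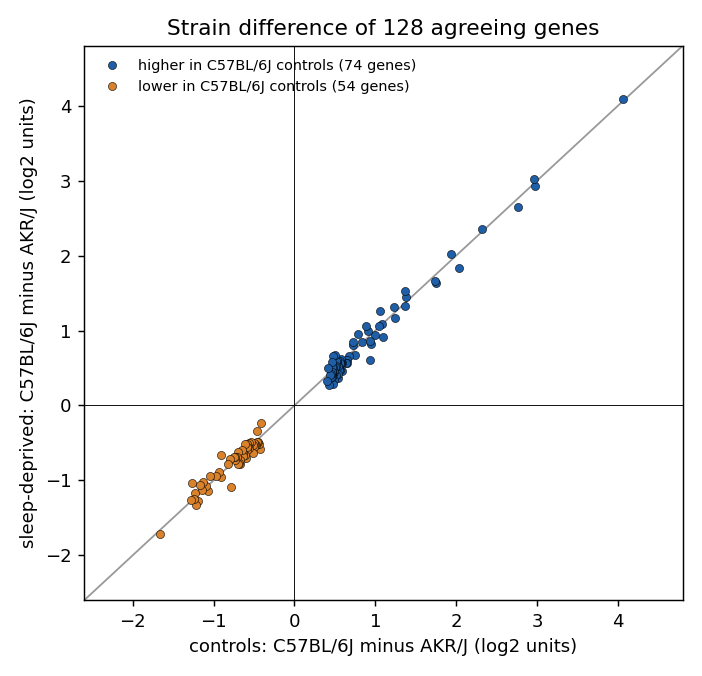
Mean strain difference of the agreeing probe sets of each of 128 genes in control arrays (x axis) and in sleep-deprived arrays (y axis), C57BL/6J minus AKR/J in log2 units, with a grey line for equal differences. All 74 genes higher in C57BL/6J controls and all 54 lower ones keep their side of 0.

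A dependence of the strain difference on sleep deprivation was called at few probe sets. The test of strain by sleep deprivation called 3 of 45037 probe sets (0.00666%), and 4098 had an unadjusted p under 0.05. Gabra2 differed by -1.31 in controls on 1 probe set, and this difference was smaller in sleep-deprived mice, a change of 0.31 ± 0.05 (adjusted p = 0.0318). Leaving out 1 array at a time gave adjusted p from 0.0102 to 0.0847, above 0.05 for 18 of 47 arrays. Ghr, the growth hormone receptor gene, gave 0.09 in sleep-deprived mice and -0.28 in controls, a change of 0.38 ± 0.07 (adjusted p = 0.0441), and lost its call for 34 of 47 arrays left out. A probe set with no gene name here gave 0.24 in sleep-deprived mice and 0.72 in controls, a change of -0.47 ± 0.07 (adjusted p = 0.00522), and kept its call for each array left out. Mcm6, a replication helicase gene (adjusted p = 0.0624), and Egr3, an activity-regulated transcription factor gene (adjusted p = 0.0664), came next and were not called.

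No dependence of the strain difference on time of sacrifice was called by limma's F test of 3 interaction terms. It gave 0 of 45037 calls, with 3092 probe sets at an unadjusted p under 0.05, and between 0 and 6 calls under the alternatives. The smallest p was that of Tlk1, a kinase gene of chromatin assembly, with 0.02, 0.49, -0.21 and -0.19 at ZT0, ZT6, ZT12 and ZT18 (adjusted p = 0.0638). It was followed by Mpp4, a synaptic scaffold gene of photoreceptors, with -0.27, 0.01, -0.77 and -0.24 (adjusted p = 0.20), by Hspa5 (adjusted p = 0.219), and by Gm10336 and Hnrnpu (adjusted p = 0.222 for both). Of the 9220 called probe sets 8623 had the same sign at each of the 4 times.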

How the data were processed

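The deposited values are log2 signals, 1 per probe set and array. RMA is the tool that the submitters' processing notes name, and its version is not given in the sources used here. Depth has no counterpart on arrays, and the number of arrays limits the precision. Each array is a pool of 3 mice, so p-values measure the spread between pools. Array medians ran from 5.65 to 5.69, and no replicate pair was treated as 1 array deposited again, since the root mean square gap within pairs was 0.147 to 0.239. Of 45101 probe sets, 64 controls were left out. In the annotation of the platform 34945 had 1 symbol, 932 several and 9160 none, and 34741 were matched through Entrez IDs to RefSeq genes of GRCm38.p6.

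limma 3.58.1 in R 4.3.3 fitted strain with time as a block (19 residual degrees of freedom) over all probe sets, as two-sided tests, with Benjamini-Hochberg adjustment and calls under 0.05. Strain by probe set was fitted on the difference of 2 probe sets per gene, strain by time as an F test, and strain by sleep deprivation on cell means of 16 groups. The procedure was tested on simulated data. Of 537 listed genes 469 were measured, on the probe set of highest mean. Members and lists were chosen with earlier results of these data known.

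Named genes come from a rule: the 12 highest and 12 lowest agreeing genes, 6 and 6 single probe set genes, 5 opposing genes with the largest smaller call, 5 and 5 genes with 1 probe set, the known strain alleles, up to 4 genes per list and 5 per interaction test by p. Genes beyond it are Vps52, Zfp386, Ddit4l, Mttp, Grin2b, Slc20a1, Fech and the genes at the size limit, chosen after their values were seen. Alternatives were quantile normalization, centring, level and probe set filters, eBayes settings, array weights, other fits, leaving out arrays or times, and other size limits.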

Additional observations from a re-analysis of the deposited data

Results flagged for a closer look

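The strain difference itself differed between sleep-deprived and control mice, by the test of that difference, on 3 probe sets. A probe set without a gene name here changed by -0.47 log2 units between the conditions, Gabra2 by 0.31 and Ghr by 0.38, each as sleep-deprived minus control of the C57BL/6J minus AKR/J difference. The adjusted p of Ghr ran from 0.00786 to 0.459 over the alternatives that tested it and was highest without the arrays that stand apart on the spike-in controls. That of Gabra2 ran from 0.0042 to 0.0369 over the same alternatives. Only 1 of 5 Gabra2 probe sets and 1 of 3 Ghr probe sets was called in this test.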

How the results depend on the processing

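Counts depended mainly on the size limit and on which probe sets were counted. Called probe sets numbered 9220, 3606 with a minimum change of 0.25, 439 with a minimum of 1, and 4261 with 1 probe set per gene. Agreeing genes numbered 128, 437 at a minimum of 0.25 and 37 at 1. They numbered 86 when the second probe set had to reach 0.7 of the largest difference, and 87 without _x_at and _s_at probe sets. Single probe set genes numbered 155, 516 at 0.25, 40 at 1, 85 among probe sets above the median level, and 302 when calls under 0.25 were not counted, an alternative chosen after seeing the data. Strain by probe set gave 867 calls, of fewer genes tested, above the median level. Strain by time gave 1 call after quantile normalization, 2 with trend and robust eBayes, 6 with array weights and 1 without the arrays apart on the spike-ins. Strain by sleep deprivation gave 1 call above the median level, 6 with trend and robust eBayes and 5 with array weights. The cause of these shifts was not tested.

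Replicate numbers were not taken to pair the samples, since same-numbered pools of the 2 strains correlated at -0.13 to 0.54 in their deviations, over 0.1 in 6 of 12 pairs. With the replicate number as a block 9620 probe sets were called, with 125 agreeing and 148 single genes, and strain by sleep deprivation gave 6 calls. Leaving out 1 array at a time gave 8687 to 9406 calls, 124 to 134 agreeing genes, 155 to 171 single genes, 1285 to 1372 for strain by probe set, 0 to 3 for strain by time, 9718 to 10940 in sleep-deprived mice and 1 to 7 for strain by sleep deprivation. With the spike-in batch as a covariate, also chosen after seeing the data, there were 10446 calls. Of 82 named genes with a called difference of at least 0.5, 1 lost its call under an alternative, S100a9 with all 71 arrays in the fit (adjusted p = 0.165), and 0 changed direction. Signal near background limits the probe sets of low level, and no detection calls were used. Several list counts moved by over 1.5 times. GABA-A receptor genes had 1 higher and 4 lower above the median level, with trend and robust eBayes, with array weights, without the 3 arrays apart on the spike-ins, with the spike-in covariate and without ZT6, and 1 and 5 with all 71 arrays. Without the spike-in arrays glutamate receptors had 2 and 0, sleep-wake genes 8 and 5, Y-linked genes 0 and 2, striatal markers 2 and 0 and hypothalamic markers 2 and 3. With the spike-in covariate retrovirus genes had 2 and 5, Y-linked genes 0 and 2 and striatal markers 2 and 0. Above the median level, with fewer genes tested, histocompatibility genes had 7 and 4, interferon-inducible genes 9 and 1, sleep-wake genes 8 and 6, choroid plexus markers 3 and 0 and blood cell markers 1 and 0. Blood cell markers had 2 and 0 with all 71 arrays and with cell means, and striatal markers 0 and 0 with the replicate block and with cell means. Glutamate receptors had 2 and 0 with array weights, and retrovirus genes 1 and 1 without _x_at and _s_at probe sets. Leaving out a whole time of sacrifice also moved small lists, among them endothelial markers to 2 higher and 0 lower without ZT18 and sleep homeostasis genes to 2 and 0 without ZT0 or ZT12.

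Leaving out 1 array was tried for the lists after seeing the data. GABA-A receptor genes had 1 and 4 without C57BL/6J ZT6 replicate 3, Y-linked genes 0 and 2 without AKR/J ZT6 replicate 3, and hypothalamic markers 2 and 3 without AKR/J ZT0 replicate 3. Glutamate receptors had 2 and 0 without C57BL/6J ZT0 replicate 3 or ZT6 replicate 2, or AKR/J ZT0 replicate 1 or ZT12 replicate 1. Choroid plexus markers had 3 and 0 without C57BL/6J ZT6 replicate 3, ZT12 replicate 2 or ZT18 replicate 2, or AKR/J ZT0 replicate 3. Blood cell markers had 2 and 0 without C57BL/6J ZT6, ZT12 or ZT18 replicate 1 or ZT18 replicate 2, or AKR/J ZT0 replicate 1 or 2, ZT6 or ZT12 replicate 2 or ZT18 replicate 1. Striatal markers had 0 calls without any 1 of 17 arrays and olfactory bulb markers 0 without any 1 of 7.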
